A study of Homo sapiens with 6 samples.

Results

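The genes of 10 subunits of the transcription factor AP-1 were examined for binding of DPF3a, SMAD4 and p300 in 786-O cells, a clear cell renal cell carcinoma line. These were JUN, JUNB and JUND of the JUN family, FOS, FOSB, FOSL1 and FOSL2 of the FOS family, and BATF3, ATF3 and MAFF, whose products pair with JUN or FOS proteins or with related leucine zipper proteins. They are 10 of the 62700 genes of the annotation used and were chosen as genes of this family. The family was of interest because the AP-1 binding sequence led at DPF3a and SMAD4 summits in earlier results of these same data. A peak was counted at a gene when its summit lay inside the gene or within 20 kb on either side, which gave 108 peaks at the 10 genes: 40 of 51530 DPF3a peaks, 57 of 46367 SMAD4 peaks and 11 of 20380 p300 peaks. No peak was counted for more than 1 of the 10 genes.

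Binding of the 3 proteins across the genome was determined by ChIP-seq in 6 libraries, 2 for each factor, and both libraries of a factor went into 1 peak list. DPF3a, the short isoform of a SWI/SNF chromatin remodeling subunit, was overexpressed with an HA tag, precipitated through the tag, and fixed with DSG followed by formaldehyde. SMAD4, the shared partner of the TGF-β pathway SMAD proteins, and p300, a histone acetyltransferase, were precipitated with antibodies against the endogenous proteins after formaldehyde alone, and whether those cells also overexpressed DPF3a is not given in the sources used here. Fixation, antibody and depth therefore differed between lists, so each value was read within its own list. With 1 list per factor, no error between replicates could be given and no test was made, and a gene without a peak is a gene where no peak passed the threshold of the list, not a gene shown to be unbound. Peak lists hold no measure of expression, so neither the identity of the line nor the level of any subunit was checked.

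AP-1 proteins bind DNA as dimers joined through a leucine zipper. JUN proteins pair with each other or with FOS, ATF and MAF relatives, whereas FOS proteins need a JUN partner to bind. Many of the genes are switched on within minutes of growth factor, cytokine or stress signals, and TGF-β signaling is known to act on JUN and FOS family genes. AP-1 itself is known to open enhancers together with SWI/SNF and to share sites with SMAD proteins. The preferred site of a JUN and FOS dimer is TGACTCA, which reads TGAGTCA on the opposite strand.

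Of the 9 windows with that site within 50 bp of a DPF3a summit, 1 for each of the 6 genes concerned is printed here first. Windows of some peaks without it follow. Each is 101 bases of the hg38 plus strand centred on a summit, and capitals mark the AP-1 consensus. The first 6 are DPF3a summits. In the windows at JUND and FOSL1 the centre of the consensus coincided with the summit, and at ATF3 it lay 2 bp from it.
JUND, chr19:18274963-18275063: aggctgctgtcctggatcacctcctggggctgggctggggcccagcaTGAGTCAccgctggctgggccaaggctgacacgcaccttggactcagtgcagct
FOSL1, chr11:65915868-65915968: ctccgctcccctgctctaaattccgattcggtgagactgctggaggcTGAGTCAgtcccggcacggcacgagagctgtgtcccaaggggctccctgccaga
ATF3, chr1:212567206-212567306: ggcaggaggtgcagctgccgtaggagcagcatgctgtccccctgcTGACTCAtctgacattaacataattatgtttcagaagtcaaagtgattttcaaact
FOSL2, chr2:28409431-28409531: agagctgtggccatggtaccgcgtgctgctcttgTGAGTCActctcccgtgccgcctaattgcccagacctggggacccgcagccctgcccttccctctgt
BATF3, chr1:212671792-212671892: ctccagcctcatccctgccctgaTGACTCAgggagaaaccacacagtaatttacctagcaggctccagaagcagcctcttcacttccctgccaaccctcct
JUNB, chr19:12783058-12783158: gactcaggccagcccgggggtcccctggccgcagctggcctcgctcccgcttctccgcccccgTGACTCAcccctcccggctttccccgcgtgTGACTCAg
The next shows the p300 summit upstream of FOSB, the only p300 peak at these genes with the consensus.
FOSB, chr19:45456089-45456189: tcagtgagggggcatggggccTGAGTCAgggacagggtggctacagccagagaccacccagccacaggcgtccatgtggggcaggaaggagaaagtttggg

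The windows below are of peaks at which the consensus was not within 50 bp of the summit. Each was the peak of highest fold enrichment of its list at its gene. Other peaks of this kind, some of them stronger, are not printed. At FOSB and JUN the capitals mark related letters, which were looked for after the windows had been read: TGAATCA, an AP-1 site with another middle base, at the FOSB DPF3a summit, and TGATGTCA, which is TGACATCA on the opposite strand, the form of a known JUN and ATF2 element of the JUN promoter, at the JUN SMAD4 summit. The windows of MAFF (DPF3a), JUNB (SMAD4) and FOS (SMAD4) held none of these.
FOSB, chr19:45455962-45456062: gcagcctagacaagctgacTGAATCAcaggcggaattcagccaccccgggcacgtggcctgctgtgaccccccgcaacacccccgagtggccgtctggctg
MAFF, chr22:38218775-38218875: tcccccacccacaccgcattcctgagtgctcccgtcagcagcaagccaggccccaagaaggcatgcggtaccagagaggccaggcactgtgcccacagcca
JUNB, chr19:12784107-12784207: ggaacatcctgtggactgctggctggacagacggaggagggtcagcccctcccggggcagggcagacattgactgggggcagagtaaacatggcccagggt
FOS, chr14:75294186-75294286: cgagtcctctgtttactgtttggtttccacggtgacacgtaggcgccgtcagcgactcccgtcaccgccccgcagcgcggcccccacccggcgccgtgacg
JUN, chr1:58784073-58784173: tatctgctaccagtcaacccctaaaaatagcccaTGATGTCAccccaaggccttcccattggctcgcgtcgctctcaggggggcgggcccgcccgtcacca

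All 10 genes held a DPF3a peak and a SMAD4 peak, and 8 held a p300 peak, the exceptions being JUND and BATF3. Such peaks were common, since 79.0% of the 20033 protein-coding genes held a DPF3a summit by the same rule, 81.3% a SMAD4 summit and 64.7% a p300 summit. Against so high a background, counts of 10, 10 and 8 of 10 say little about these genes. Among genes no longer than ATF3, the longest of the 10 at 55444 bp, the shares were 74.0%, 77.5% and 59.1%. The windows also took in neighbouring genes. A member had the nearest protein-coding start for 32 of the 40 DPF3a summits, 40 of the 57 SMAD4 summits and 10 of the 11 p300 summits. The other summits lay nearest to the starts of HOOK2, PRDX2 and RNASEH2A beside JUNB, IQCN beside JUND, RTN2 beside FOSB, EFEMP2, CTSW, FIBP, CCDC85B, C11orf68 and DRAP1 beside FOSL1, GARIN4 beside ATF3, and PLA2G6 beside MAFF.

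At the promoters of these genes p300 peaks were the least frequent. A promoter was taken as 1000 bp before to 100 bp after any annotated start of the gene. SMAD4 had a summit in the promoter of all 10 genes, against 57.2% of protein-coding genes, and DPF3a in the promoter of 8, all but JUNB and FOS, against 41.7%. A p300 summit lay in the promoter of 1 of the 10, ATF3, against 32.9% of protein-coding genes. With 1000 bp counted on both sides of each start, the p300 count was 3, since the summits 309 bp into JUN and 809 bp into FOSL1 then fell inside. The 32.9% does not apply to this wider rule, for which no share of protein-coding genes is given.

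**Figure D1:**
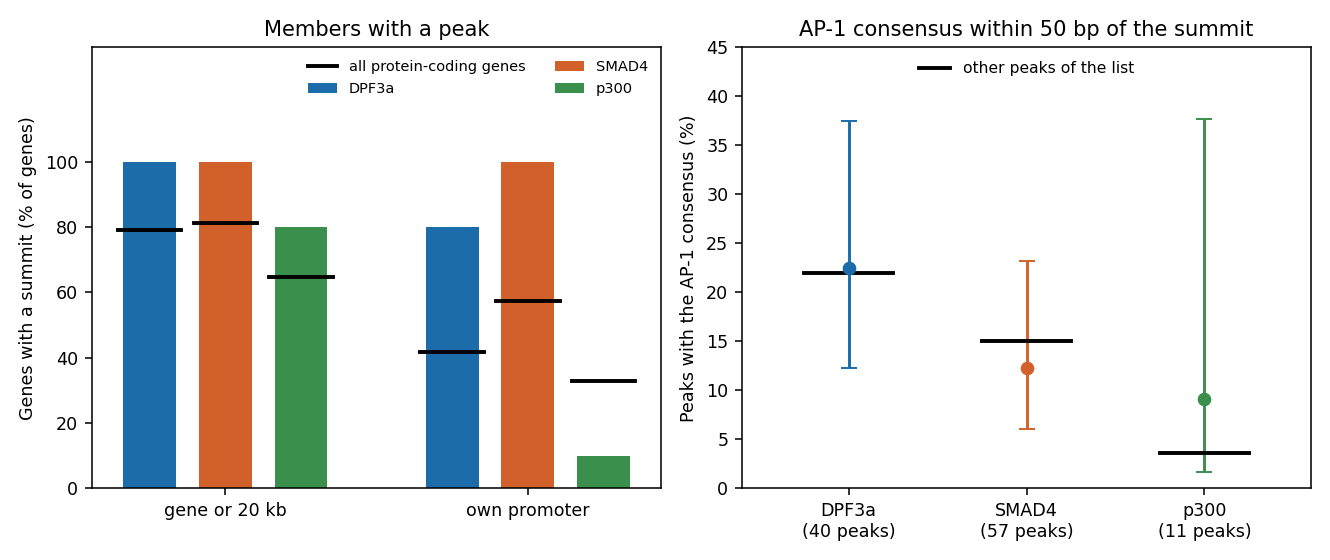
Left, share of the 10 AP-1 subunit genes (bars) and of 20033 protein-coding genes (black lines) with a summit in the gene or within 20 kb and in a promoter of their own, in percent. Right, percent of peaks that held the AP-1 consensus no more than 50 bp from their summit, for the members' peaks (points, 95% Wilson intervals) and for the other peaks of each list (black lines): the p300 promoter bar is the lowest, at 1 of 10 genes, and each interval holds the line of its list.

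The number of summits per gene varied most for SMAD4. SMAD4 had 11 summits at FOSL1, 10 at JUNB, 7 at FOSB, 6 at ATF3, 5 each at JUND, FOSL2 and MAFF, 4 at FOS, 3 at BATF3 and 1 at JUN. FOSL1 held more SMAD4 summits than 97.6% of protein-coding genes and JUNB more than 96.9%, whereas JUN held more than 18.7%. The 2 genes with most lay among others: the window of FOSL1 held 6 other protein-coding genes and that of JUNB 4, and FOSL1 had the nearest start for 3 of its 11 summits and JUNB for 5 of its 10. DPF3a had 7 summits at FOSB, 6 at ATF3, 5 at FOSL1, 4 each at JUND, FOSL2 and BATF3, 3 each at JUN, JUNB and MAFF, and 1 at FOS. p300 had 2 summits each at JUN, JUNB and FOSL1 and 1 each at FOS, FOSB, FOSL2, ATF3 and MAFF. FOS, the gene with the fewest DPF3a summits, held more of them than 21.0% of protein-coding genes.

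**Figure D2:**
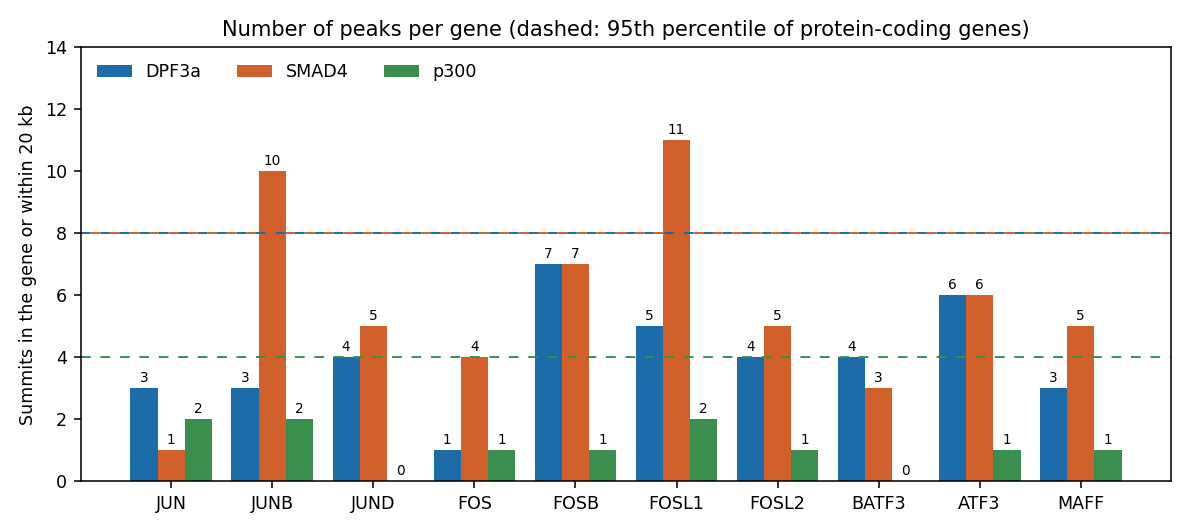
Number of DPF3a, SMAD4 and p300 summits (bars, y axis) in each AP-1 subunit gene or within 20 kb of it. Dashed lines give the 95th percentile over protein-coding genes, which is 8 for DPF3a and SMAD4 and 4 for p300. The SMAD4 counts of JUNB (10) and FOSL1 (11) lie above their line and no other count does.

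The members are described below by family. For each peak the fold enrichment is the authors' ratio of reads at the summit to the local background, and the height is the number of reads over the summit, recovered from the deposited values. Positions are distances from the start of the canonical transcript.

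JUN (hg38 chr1:58776845-58784048, minus strand) encodes the founding JUN protein, a strong activator that also acts on its own promoter. All its DPF3a peaks lay upstream, at 397, 1074 and 1753 bp, with fold enrichments of 4.41, 4.16 and 3.88 and heights of 34, 31 and 28 reads. The single SMAD4 peak had its summit 76 bp upstream, with a fold enrichment of 4.92 and a height of 134 reads, 59.6 times the genome-wide background level of that library. The p300 summits lay inside the gene, at 309 bp in the untranslated part of its exon (3.06-fold, 35 reads) and at 1634 bp in the coding part (3.98-fold, 46 reads). The SMAD4 peak and the p300 peak at 309 bp overlapped by at least 0.5 of both. The DPF3a peaks at 397 and 1074 bp lay wholly inside the wider SMAD4 peak, and the first of them also overlapped that p300 peak, so peaks of all 3 factors met at the JUN start. Because the SMAD4 and p300 peaks were wide, no DPF3a peak reached 0.5 of both, and by that rule JUN was the only member without a site of DPF3a and SMAD4.

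JUNB (hg38 chr19:12791486-12793315, plus strand) encodes a JUN protein that is a weaker activator and often counters JUN. Its window held 10 SMAD4 summits, and JUNB had the nearest start for 5 of them. The highest summit lay 7329 bp upstream (8.99-fold) with 309 reads, 137.4 times the genome level, which placed it 30th by height and 114th by q among 46367 SMAD4 peaks. A p300 peak shared that site (3.20-fold, 37 reads), and no DPF3a peak did. At 2346 bp, past the end of this short gene, a SMAD4 peak of 5.99-fold and 222 reads, a DPF3a peak of 4.64-fold and 44 reads and a p300 peak of 3.35-fold and 50 reads formed a site of all 3 factors. The p300 height there was the 382nd of 20380, while its fold enrichment ranked 19678th. The SMAD4 summit at the start itself, 2 bp into the gene, had 143 reads but a fold enrichment of 3.63, over a local background of 38.7 reads. DPF3a had its strongest JUNB peak 8378 bp upstream (5.28-fold, 45 reads), nearest to the start of HOOK2, with the consensus 16 bp from the summit.

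JUND (hg38 chr19:18279694-18281622, minus strand) encodes the JUN protein that is present more steadily in most cells. Its strongest DPF3a peak, 6609 bp from the start, had a fold enrichment of 10.03 and 69 reads, with the AP-1 consensus at the summit, but the nearest start there was that of IQCN. The next, 19559 bp upstream, had 8.62-fold and 60 reads, with a consensus 46 bp away. At the promoter, DPF3a peaked 273 bp upstream (6.80-fold, 45 reads) and SMAD4 44 bp into the gene (6.46-fold, 172 reads). All 3 of these DPF3a sites were shared with SMAD4. The remaining DPF3a peak, 11916 bp upstream (5.56-fold, 15 reads), was not shared, and JUND had no p300 peak.

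FOS (hg38 chr14:75278826-75282230, plus strand) encodes the founding FOS protein, an immediate early gene product. It was the member least marked by DPF3a, whose single summit lay 15302 bp past the start with 13 reads and a fold enrichment of 5.07. SMAD4 shared that site with its strongest peak at the gene (9.91-fold, 65 reads), and had further summits 197 bp upstream (6.69-fold, 54 reads), 1588 bp upstream (5.68-fold, 46 reads) and 19664 bp upstream (5.23-fold, 16 reads). The p300 summit lay 1485 bp upstream (4.98-fold, 22 reads), in a peak that touched the SMAD4 peak at 1588 bp without reaching 0.5 of both. The FOS promoter summit of SMAD4 was thus alone.

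FOSB (hg38 chr19:45467995-45475179, plus strand) encodes a FOS protein known for its induction by repeated stimulation in neurons. The region 11984 bp upstream carried the highest SMAD4 fold enrichment and height at any member. There SMAD4 reached 14.9-fold and 323 reads, 143.6 times the genome level, which placed it 20th by q and 22nd by height among the 46367 peaks of that list. DPF3a reached 12.5-fold and 98 reads with its summit 16 bp away, and p300 reached 5.30-fold and 41 reads, the highest p300 fold enrichment at the members. In the annotation this region falls within the interval of ERCC1, outside its canonical transcript, while FOSB had the nearest start. At the promoters of its several annotated starts FOSB had 3 DPF3a and 3 SMAD4 peaks, all with lower values than the upstream region. Near the canonical start DPF3a had 3.90-fold and 21 reads 179 bp upstream, and SMAD4 had 4.93-fold and 54 reads 247 bp upstream. The others lay at starts within the canonical introns: DPF3a at 1126 bp (4.09-fold, 22 reads) and SMAD4 at 1308 bp (5.46-fold, 60 reads), then DPF3a at 2449 bp (6.94-fold, 38 reads) and SMAD4 at 2326 bp (4.94-fold, 54 reads), the last pair forming a shared site.

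FOSL1 (hg38 chr11:65892049-65900573, minus strand) encodes FRA1, a FOS protein without the strong activating part of FOS, often abundant in migrating tumor cells. Its highest DPF3a summit, 15530 bp upstream, had 131 reads and was 250th by height of 51530, with a fold enrichment of 9.40, an AP-1 consensus at the summit, and C11orf68 as the nearest start. SMAD4 shared the site (4.56-fold, 163 reads). A DPF3a peak 2896 bp upstream (8.13-fold, 80 reads) had FOSL1 itself as the nearest start and was also shared with SMAD4 (5.51-fold, 126 reads). At the promoter DPF3a had 34 reads but a fold enrichment of 3.28, and SMAD4 had 122 reads and 4.63-fold. The highest SMAD4 fold enrichment in the window, 6.80 with 61 reads, lay 19194 bp from the start in an intron of CTSW, whose start was the nearest. Inside the first part of the gene SMAD4 (993 bp, 3.33-fold, 89 reads) and p300 (809 bp, 3.14-fold, 39 reads) shared a site without DPF3a.

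FOSL2 (hg38 chr2:28392448-28417317, plus strand) encodes FRA2, the relative of FRA1. It held all its peaks near its own start or in its introns, with no other protein-coding gene in the window. DPF3a was highest at 16623 bp (7.08-fold, 94 reads) with the consensus 13 bp from the summit, where SMAD4 had 5.82-fold and 164 reads. SMAD4 was highest at 13816 bp (6.38-fold, 176 reads), where DPF3a had 3.48-fold and 44 reads. All 4 DPF3a peaks of FOSL2 were shared with SMAD4, while the p300 peak at 5663 bp (3.03-fold, 34 reads) was shared with SMAD4 alone (2.77-fold, 47 reads).

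BATF3 (hg38 chr1:212686417-212699840, minus strand) encodes a partner of JUN best known for the development of a class of dendritic cells. Its SMAD4 summits were low, with 35, 35 and 17 reads and at most 5.98-fold at 28094 bp, and its tallest SMAD4 summit was lower than the tallest of every other member. Its strongest DPF3a peaks lay past the gene, 27998 bp from the start (8.96-fold, 49 reads), and in an intron at 6613 bp (8.91-fold, 22 reads). A pair of AP-1 consensus matches lay at the 2 distal sites, 24 and 43 bp from the DPF3a summits, and both sites were shared with SMAD4. The promoter peaks were low, with 13 DPF3a reads (4.83-fold) and 17 SMAD4 reads (4.13-fold).

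ATF3 (hg38 chr1:212565334-212620777, plus strand) encodes a stress-induced factor that pairs with JUN proteins and often represses. By the promoter rule used here it was the only member with all 3 factors at its promoter. With 1000 bp counted on both sides of each start, JUN and FOSL1 also had all 3. No share of protein-coding genes with all 3 factors in a promoter is given, so these counts were not compared with other genes. At ATF3 the DPF3a summit lay 316 bp upstream (9.37-fold, 64 reads), the SMAD4 summit 85 bp upstream (10.6-fold, 169 reads) and the p300 summit 260 bp upstream (4.53-fold, 40 reads). This was the canonical start. Within the longer transcripts DPF3a also peaked 41505 bp upstream (7.74-fold, 25 reads) with the consensus 2 bp from the summit. The DPF3a peak 12426 bp upstream had the highest fold enrichment of the gene for that factor (10.7, 54 reads), and SMAD4 reached 11.3-fold and 51 reads past the gene at 28059 bp, where DPF3a had 8.79-fold and 31 reads and GARIN4 was the nearest start.

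MAFF (hg38 chr22:38200767-38216507, plus strand) encodes a small MAF protein that lacks an activating part. The site 16831 bp from its start carried the highest DPF3a fold enrichment at any member, 13.3, with 82 reads, and the SMAD4 summit lay 1 bp away (10.4-fold, 103 reads). The p300 peak there was modest (3.44-fold, 29 reads). At the promoter DPF3a had 6.54-fold and 24 reads 11 bp into the gene, and SMAD4 7.28-fold and 75 reads at 40 bp. Both lists thus had more than 1 site at MAFF, and the distal one was the stronger in each.

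**Figure D3:**
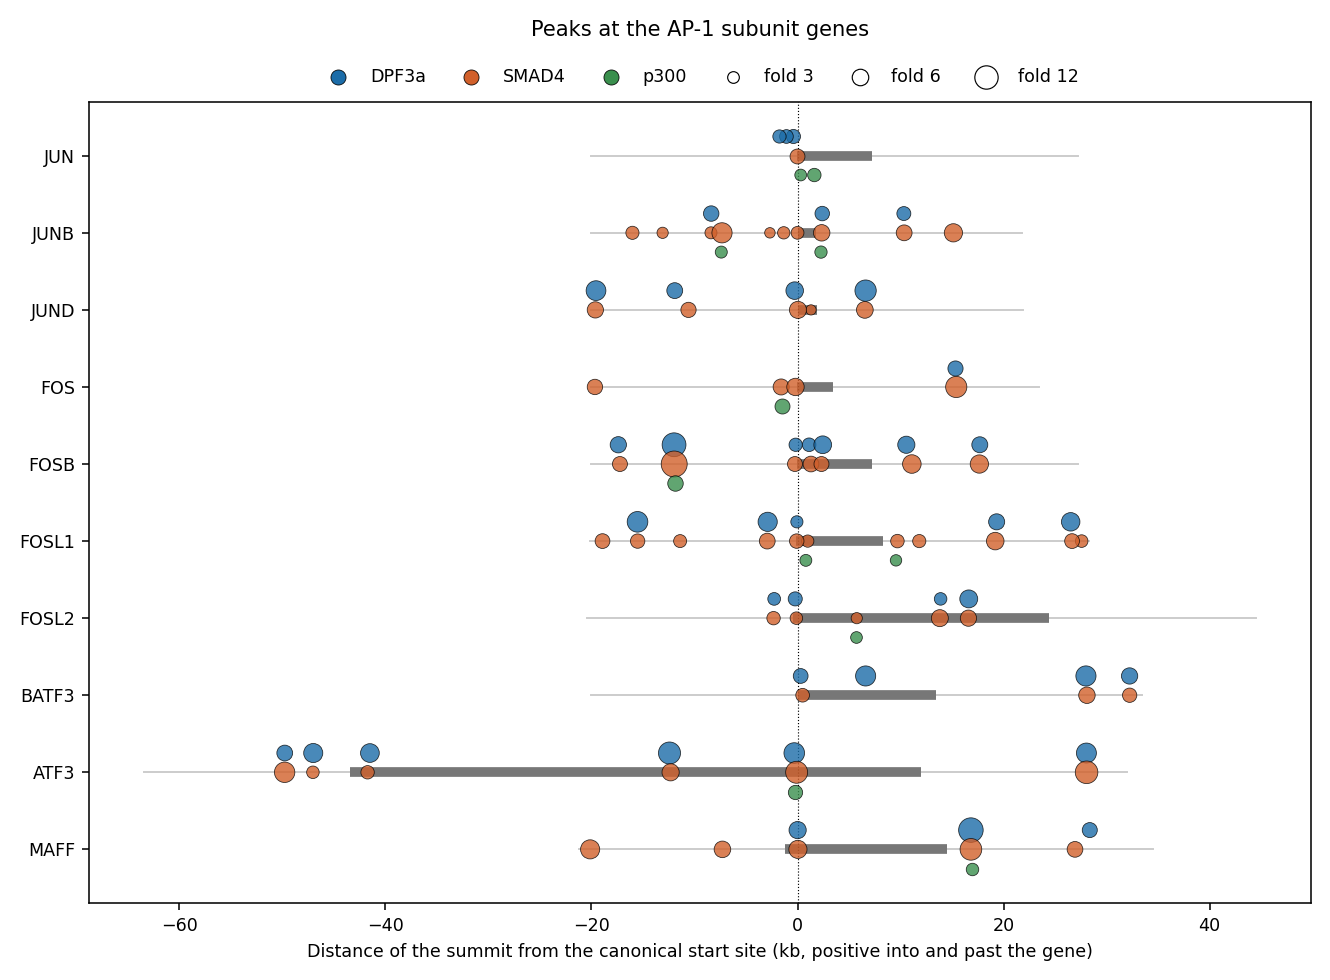
Position of each peak summit relative to the canonical start site (x axis, kb, positive in the direction of transcription) at the AP-1 subunit genes, with the gene as a grey bar and the searched window as a thin line. Circle area gives the fold enrichment within each list. The largest circles lie away from the start, 11984 bp upstream of FOSB and 16831 bp downstream in MAFF's window, and JUND and BATF3 have no p300 circle.

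Strength within a list depended on the measure. By fold enrichment, the median peak at the members stood at the 34.6th percentile of the DPF3a list, the 32.6th of the SMAD4 list and the 3.4th of the p300 list. By summit height, a measure added after the data were seen, the same peaks stood at the 67.3rd, 74.5th and 90.3rd percentiles, and by −log10 q at the 54.5th, 62.5th and 48.4th. The local background moved with this: in the DPF3a list its median was 4.96 reads at the members' peaks and 2.82 over the list, in the SMAD4 list 11.8 and 5.16, and in the p300 list 10.8 and 3.76. The median height was 34 reads at the members against 25 over the DPF3a list, 67 against 39 for SMAD4 and 37 against 23 for p300. The member peaks were thus tall for their list and stood over a high background. The sources used here name no control library, and whether this background came from the ChIP library or from an input is not given. Fold enrichment is a ratio to this background, so at a given height a higher background gives a lower fold enrichment. What raised the background at the members' peaks was not tested.

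**Figure D4:**
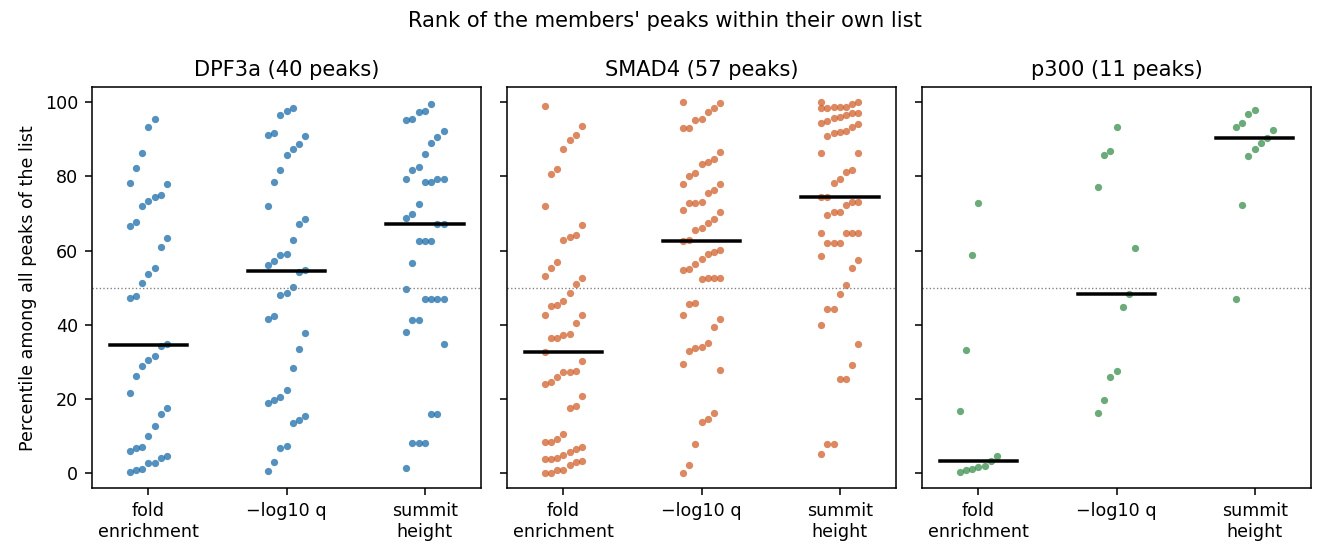
Percentile of each member peak (points) among all peaks of its own list, by fold enrichment, −log10 q and summit height, with the median as a bar and the 50th percentile dotted. The medians rise from fold enrichment to height in each list, for p300 from 3.4 to 90.3.

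Most DPF3a peaks at these genes were also SMAD4 peaks, as were most DPF3a peaks elsewhere. With peaks counted as shared when they covered at least 0.5 of each other, 29 of 40 DPF3a peaks (72.5%, 95% Wilson interval 57.2 to 83.9) were shared with SMAD4, against 59.3% of the other DPF3a peaks. Seen from SMAD4, which had more peaks here, 29 of 57 (50.9%, 38.3 to 63.4) were shared, against 65.9% of its other peaks. The summits of the 29 sites were a median of 60 bp apart, against 49 bp over the other shared sites. Of the 11 p300 peaks, 9 were shared with SMAD4 (81.8%, 52.3 to 94.9; 50.7% elsewhere) and 4 with DPF3a (36.4%, 15.2 to 64.6; 41.9% elsewhere). These intervals cover counting error only, and peaks of 1 gene are not independent of each other.

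A site of all 3 factors was present at 4 of the 10 genes, 1 each at JUNB, FOSB, ATF3 and MAFF, against 41.4% of protein-coding genes. The 4 sites included the strongest DPF3a peaks of FOSB and MAFF, and only that of ATF3 lay at a promoter of the gene. When any overlap of peaks was counted, JUN was added and 5 genes had such a site. The 41.4% is by the stricter rule, and no share of protein-coding genes is given for any overlap. A further 5 sites by the stricter rule, at JUN, JUNB, FOSL1 and FOSL2, held SMAD4 and p300 without DPF3a, of which the JUN site was overlapped in part by DPF3a peaks. At FOSL1 there were 2 of these and at the other genes 1 each.

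The share of peaks with the AP-1 consensus was close to that of the rest of each list. The consensus lay within 50 bp of 9 of 40 DPF3a summits (22.5%, 12.3 to 37.5), against 22.0% of the other DPF3a peaks. For SMAD4 the count was 7 of 57 (12.3%, 6.08 to 23.2), against 15.0%, and for p300 1 of 11 (9.09%, 1.62 to 37.7), against 3.60%. Each interval held the share of the rest of the list, so a difference was not detectable with this number of peaks. Outside promoters the DPF3a share was 7 of 22 (31.8%, 16.4 to 52.7) against 25.4%, and the SMAD4 share 7 of 29 (24.1%, 12.2 to 42.1) against 19.4%. The 9 DPF3a matches were spread over JUNB, JUND, FOSL1, FOSL2, BATF3 and ATF3, and the 7 SMAD4 matches over JUNB, JUND, FOSL1, FOSL2, BATF3 and MAFF. At 5 of the 29 sites of DPF3a and SMAD4 the consensus was within 50 bp of both summits. No such share is given for the other sites of these 2 factors, so this count was not compared. At JUN and FOS it was found at no summit of any list.

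Other sites of interest were rarer. None of the DPF3a, SMAD4 or p300 summits at the members had the cAMP response element TGACGTCA or the palindromic SMAD site GTCTAGAC within 50 bp, where the letters were also scarce in general, at 0.151% and 0.0641% of the other DPF3a peaks. The RUNX site TGTGGTT lay at 1 DPF3a summit of 40 (7.04% of the others) and at none of the 57 SMAD4 summits (6.03% of the others). The TGAATCA form, or TGATTCA on the opposite strand, lay at 2 DPF3a summits, those of FOSB and ATF3 named above, against 6.50% of other DPF3a peaks, and at 3 SMAD4 summits, all at FOSB, against 4.11%. The TGACATCA form at the JUN start was present at 0.656% of the other SMAD4 peaks and in 4.58% of all promoters.

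The promoters themselves were taken from 1000 bp before to 100 bp after the canonical start and searched on both strands. Of the sites named below, all but the SMAD site were present in 1 to 3 of the 10 genes. The CArG box, the site of serum response factor, was present in FOS, at −314 to −305 bp from the start, and in FOSB, at −274 to −265 bp, and in 5.20% of all 20033 promoters. The TGACGTCA element was present in FOSB, JUND and MAFF and in 3.68% of all promoters. TGACTCA was present in FOSL1 and FOSL2, within 10 bp of the start in each, and in 12.8% of all promoters. The ETS site CCGGAAGT was present in JUN (7.71% of all), the RUNX site in FOSB (13.0%), and the SMAD site in none of the 10 (0.674%). A match describes letters only and was not read as a bound site.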

How the data were processed

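Binding was measured by ChIP-seq in 6 libraries, grouped by the precipitated factor named in each title. According to the methods and the submitters' processing notes, adapters were trimmed (cutadapt), reads were mapped to hg38 with Bowtie2 2.3.5.1, those with mapping quality under 30, mitochondrial reads and duplicates (Picard) were removed, and peaks were called with MACS2 2.2.5. How the 2 replicates of a factor were combined is not given in the sources used here, and no control library is named.

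The deposited score equals −log10 q multiplied by 10 and cut to a whole number, and the authors kept scores over 50. The deposited fold enrichment is the authors' ratio of summit reads to local background, each plus 1. The −log10 p and −log10 q deposited by the authors compare the same quantities with a Poisson distribution. From fold enrichment and −log10 p the summit height in reads and the local background were recovered here. The lowest background, taken as the genome level, was 1.17 reads in the DPF3a list, 2.25 in the SMAD4 list and 2.05 in the p300 list. With fragments of 200 bp and a genome of 2.7 Gb, both assumed, these correspond to 15.8, 30.4 and 27.6 M reads. The deeper SMAD4 list can hold weaker peaks than the DPF3a list.

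Summits were assigned with the GENCODE 44 annotation and sequences read from hg38 with pysam 0.24.0. Shared peaks overlapped by at least 0.5 of both, and the calculation gave the same pairs as bedtools 2.31.1. Percentiles were taken within a list, and 95% Wilson intervals cover counting error only. Python 3.11.15, numpy 2.4.6, pandas 2.3.3, SciPy 1.17.1 and matplotlib 3.10.9 were used, and the calculations were tested on simulated data. All 10 members are named, each with its strongest peak of each list and its sites of all 3 factors, and other groups by a few of the genes with most summits. Other peaks, consensus letters and neighbouring genes were picked for the text after their values were seen. The members and lists were chosen with earlier results of these data known. Alternatives changed the score threshold, the window, the promoter, the overlap, the motif window and the measure of strength.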

Additional observations from a re-analysis of the deposited data

How the results depend on the processing

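No paired analysis was possible because the replicates of a factor were merged into 1 list, which also meant that no replicate could be left out. A score over 100 left 26 DPF3a peaks at the members and 3 p300 peaks at 3 members, 2 sites each of DPF3a with p300, of SMAD4 with p300 and of all 3 factors. A score over 200 left 12 DPF3a and 36 SMAD4 peaks, a DPF3a promoter peak at 2 members, and 0 p300 peaks, with 0 members holding a p300 peak and 0 with it in a promoter. Within 5 kb of the genes there were 24 DPF3a and 31 SMAD4 peaks, and within 50 kb 71, 97 and 24 p300 peaks. With 1000 bp on both sides of a start, 3 members had a p300 promoter peak, and no share of protein-coding genes is given by that rule. The share of the members' SMAD4 peaks with the AP-1 consensus was 24.6% within 100 bp. Outside promoters it was 24.1%, against 19.4% of the other SMAD4 peaks there. The median percentile by −log10 q was 62.5 for SMAD4 and 48.4 for p300, and by summit height 74.5 and 90.3. The p300 list, whose counts fell most with the threshold, had a median −log10 q of 6.79, against 12.8 for DPF3a and 18.0 for SMAD4. A count was taken to have moved when it changed by over 1.5 times, a share when it left its 95% interval, and a median percentile when it left the middle 50% of the members' peaks. By these limits the other 45 values did not move, but some intervals were wide. The DPF3a median percentile was 54.5 by −log10 q and 67.3 by height. With a score over 100 the share with the AP-1 consensus was 34.6% of 26 peaks for DPF3a and 33.3% of only 3 peaks for p300. No share of the other peaks is given within 100 bp or with a score over 100, so those shares were not compared with the rest of the lists. Counts of members holding a DPF3a or SMAD4 peak stayed within 1.5 times under each threshold and window.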

Other observations

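Genes around the AP-1 network were examined by the same rule, as counts only, beside the shares of all protein-coding genes: 79.0% held a DPF3a summit, 81.3% a SMAD4 summit and 64.7% a p300 summit, and 41.7%, 57.2% and 32.9% held one in a promoter. Of 14 other leucine zipper genes of the network, 11 held a DPF3a summit, 14 a SMAD4 summit and 9 a p300 summit, and 10, 12 and 6 held one in a promoter. CREB5, which encodes a relative of ATF2, had the most in every list, with 20 DPF3a, 14 SMAD4 and 11 p300 summits and 4 sites of all 3 factors, over a gene of 526574 bp that is much longer than any of the 10 subunit genes. BACH1, a repressor that pairs with small MAF proteins, had 15 DPF3a and 12 SMAD4 summits, and NFE2L2, the oxidative stress factor that uses the same partners, had 12 and 11, with 5 p300 summits. These are also long genes, of 436681 bp for BACH1 and 174090 bp for NFE2L2.

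Of 11 genes that encode kinases or a phosphatase acting on AP-1, all 11 held a summit of each factor. SMAD4 lay in the promoter of 11 of them, p300 in that of 8 and DPF3a in that of 6. MAPK10, a JNK kinase gene of 604619 bp, had the most DPF3a summits of the group, 11. DUSP1, a phosphatase gene of 3100 bp, had the most SMAD4 summits, 8. Of 17 other immediate early genes, 16 held a DPF3a summit, 16 a SMAD4 summit and 14 a p300 summit, and 12, 15 and 7 held one in a promoter. IER2 had the most DPF3a summits, 7, and the most SMAD4 summits, 9. IER3, named after its value was seen, was the gene of this group with no summit of any factor. No test was made between the groups.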
